A study of Mus musculus with 6 samples.

Results

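Serum amyloid A (Saa1, Saa2, Saa3 and Saa4), orosomucoid (Orm1, Orm2 and Orm3), lipocalin 2 (Lcn2), haptoglobin (Hp) and hemopexin (Hpx) are plasma proteins of the acute phase. They were taken as a fixed list of 10 gene symbols, chosen with earlier results of these data known. The genes were found on the arrays through the RefSeq accession of each probe. All 10 were present, with 1 probe each, among 20659 named genes, and all 10 were among the 14807 genes tested. Liver RNA was measured on 1-colour Cy3 arrays in 3 control samples (control 1, 2 and 3) and 3 samples of mice given DECB, a deproteinized extract of calf blood (DECB 4, 5 and 6). All were male ICR mice, an outbred stock, of 18 to 22 g at the start, from a study of 24 mice with 12 in each group. The labels state no age for them. Controls received normal saline and the treated group DECB by the intragastric route, each at 0.08 mL per 20 g once a day for 35 days, while the sample descriptions name day 1 for controls and day 30 for DECB. The study also ran a hypoxia tolerance test, and the labels do not say whether liver was taken before or after it. Nothing in them ties an array to its own mouse, so p-values reflect only the spread between these arrays, which may be technical.

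In the acute phase response, the liver changes its output of plasma proteins during infection or injury. Interleukin-1 and tumour necrosis factor, acting through NF-kB, and interleukin-6, acting through gp130 and STAT3, drive the genes in hepatocytes together with C/EBP factors and glucocorticoids. Serum amyloid A binds to high-density lipoprotein, and in mice Saa1 and Saa2 are the main acute-phase forms of liver, Saa4 is a largely constitutive form, and Saa3 is also made by macrophages and fat. Orosomucoids, also called alpha-1-acid glycoproteins, carry small molecules in plasma. Lipocalin 2 withholds bacterial iron carriers, haptoglobin captures free haemoglobin and hemopexin captures free haem.

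In the RefSeq gene order of the mouse, Saa3, Saa4, Saa1 and Saa2 lie next to each other on chromosome 7 and Orm1, Orm3 and Orm2 next to each other on chromosome 4. RefSeq promoter windows of 300 bases (250 before and 50 after the transcription start, GRCm38.p6) were given for 8 members, all but Orm1 and Hp. The windows of Saa1 and Saa2 were identical at 287 of 300 bases (95.7%), and those of Orm2 and Orm3 at 263 (87.7%), whereas the Saa1 window shared 165 bases (55%) with that of Saa3 and 152 (50.7%) with that of Saa4. The 250 bases before the start are shown for the members whose 3 DECB arrays all lay above the 3 control arrays, 5′ to 3′, with matches of the C/EBP motif TTGCNNAA (either strand) in capitals. They lie at chr7:46742981-46743230 (minus strand) for Saa1, chr7:46751583-46751832 (plus) for Saa2, chr7:46715677-46715926 (minus) for Saa3, chr7:46732604-46732853 (minus) for Saa4 and chr2:32387740-32387989 (minus) for Lcn2.
Saa1: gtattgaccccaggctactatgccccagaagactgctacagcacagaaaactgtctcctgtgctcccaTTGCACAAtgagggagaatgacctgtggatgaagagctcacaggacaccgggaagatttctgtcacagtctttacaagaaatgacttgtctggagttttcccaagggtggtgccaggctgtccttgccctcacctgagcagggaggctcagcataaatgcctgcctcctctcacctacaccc
Saa2: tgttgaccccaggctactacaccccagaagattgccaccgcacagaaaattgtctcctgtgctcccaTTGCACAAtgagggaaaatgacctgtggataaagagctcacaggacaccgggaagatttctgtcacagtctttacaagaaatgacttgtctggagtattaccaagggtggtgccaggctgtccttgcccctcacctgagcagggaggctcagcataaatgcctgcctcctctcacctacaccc
Saa3: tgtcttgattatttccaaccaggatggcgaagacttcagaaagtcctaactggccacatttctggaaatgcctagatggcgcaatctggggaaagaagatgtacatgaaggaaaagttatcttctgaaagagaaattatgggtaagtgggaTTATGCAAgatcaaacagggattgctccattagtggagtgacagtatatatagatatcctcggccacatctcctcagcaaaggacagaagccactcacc
Saa4: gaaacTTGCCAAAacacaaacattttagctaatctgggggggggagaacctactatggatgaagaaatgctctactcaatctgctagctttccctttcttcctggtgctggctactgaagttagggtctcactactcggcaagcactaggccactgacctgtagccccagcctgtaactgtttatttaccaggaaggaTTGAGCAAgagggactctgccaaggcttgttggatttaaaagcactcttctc
Lcn2: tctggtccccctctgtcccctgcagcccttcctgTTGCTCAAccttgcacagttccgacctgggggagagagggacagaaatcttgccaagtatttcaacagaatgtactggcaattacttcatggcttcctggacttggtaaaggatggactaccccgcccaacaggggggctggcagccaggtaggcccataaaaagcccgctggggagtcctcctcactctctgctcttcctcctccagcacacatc

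The 8 member windows are not independent, since those of Saa1 and Saa2, and those of Orm2 and Orm3, are largely identical. A C/EBP match was found in 8 of 8 member windows, against 10.8% of all 32851 promoter windows. Counted from the start, its first base lay at -182 in Saa1 and -183 in Saa2, where both read TTGCACAA, at -99 in Saa3, at -245 and -52 in Saa4 and at -216 in Lcn2. In Orm2 and Orm3 it lay at -120 and -121, and in Hpx at -200. Of the other motifs searched, the STAT3 motif TTCNNNGAA, the glucocorticoid response element and the NF-kB consensus, each on both strands, were found in 0 of 8 member windows, against 8.3%, 0.475% and 4.51% of all windows. The type II interleukin-6 element CTGGGA (both strands) was in the windows of Saa3 and Orm3, against 31.8% of all. Both of these matches lay after the transcription start, from base 6 in Saa3 and base 11 in Orm3. A TATA box, TATAAA on the gene's strand, was in those of Orm2 and Orm3, against 8.32% of all. The palindrome in Orm2 counts on both strands, and no match of one motif overlapped a match of another. Such a match describes the letters of the window and is no evidence of binding.

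Arrays that shared a scan time are called a scan here. Scan 1 held control 1 and DECB 6, scan 2 held controls 2 and 3 and DECB 4, and scan 3 held DECB 5 alone. Scan 1 was dimmer: the 75th percentile of its signals was 78.8 and 84.8, against 422 to 551 on the other arrays, and 14925 and 16352 of 39429 probes were well above background there, against 24132 to 29517. Levels are therefore given relative to the 75th percentile of the same array. No spot was saturated, the highest signal being 336667 against a saturation value of 778131 on that array, and 9 members were well above background on all 6 arrays, Saa3 on all but control 1. The arrays read as liver: 11 of 11 hepatocyte markers, Alb and Ttr among them, were well above background on every array.

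All 10 members had a higher mean in DECB than in control samples, while 47.5% of all genes tested did. As the list was chosen with earlier results of these data known, its contrast with all genes is a description. The median difference of the members was 1.66 (log2, DECB minus control), with a range from 0.05 for Hp to 3.53 for Saa1, and that of all genes was -0.03. In limma's moderated test with Benjamini-Hochberg adjustment over all genes, 1 member passed an adjusted p under 0.05, Saa1, which rose; 0.466% of all genes passed in either direction and 0.209% passed as higher. The next members were Lcn2 (adjusted p = 0.0514) and Saa4 (adjusted p = 0.068). For 5 members, Saa1, Saa2, Saa3, Saa4 and Lcn2, the 3 DECB arrays all lay above the 3 control arrays, as for 7.24% of all genes. The remaining 5, the orosomucoids, Hp and Hpx, overlapped between groups. Without the dim scan 1, all DECB arrays lay above all controls for 9 members, every one but Hp, and for 26.5% of all genes. With scan as a block in the fit, 7 of 10 members passed as higher (Saa1, Saa2, Saa3, Saa4, Orm2, Orm3 and Lcn2), where 2.74% of all genes did; that fit has 2 residual degrees of freedom and takes nothing on the contrast from DECB 5.

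**Figure D1:**
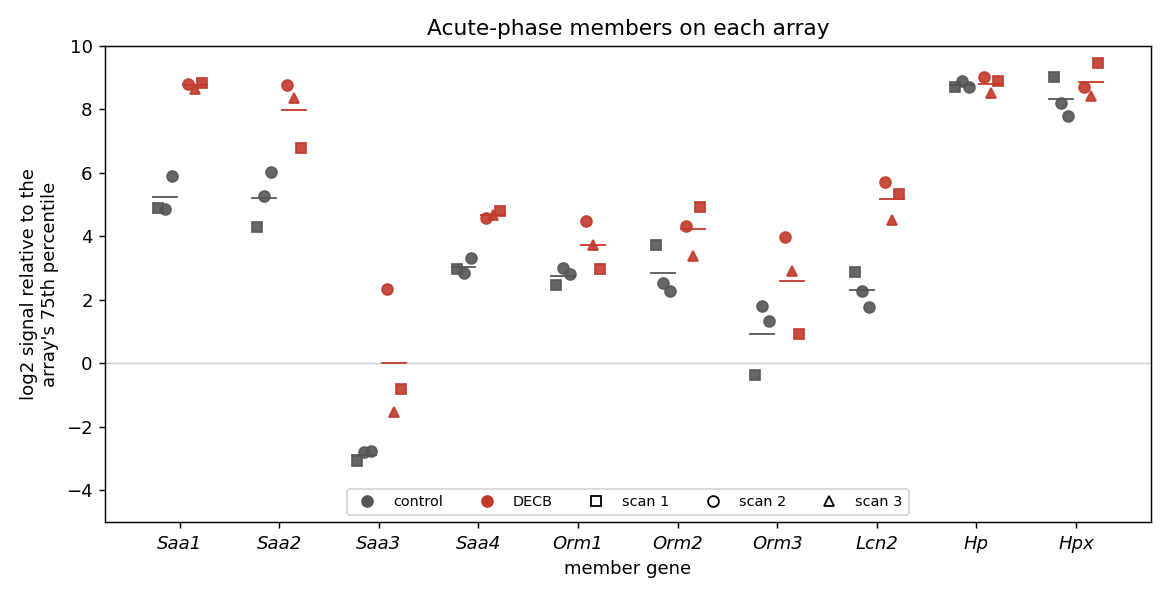
Level of each member on each array (vertical axis, log2 of the signal over the 75th percentile of that array; horizontal axis, gene). Grey marks are control and red marks DECB arrays, their shape gives the scan and short lines are group means (n = 3). The groups stand apart for Saa1 to Saa4 and Lcn2 and overlap for the other members; heights of different genes come from different probes and are not comparable.

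Saa1, the major inducible serum amyloid A, had a signal of 30.1, 29.1 and 59.9 times the array's 75th percentile on controls 1, 2 and 3, and of 447, 400 and 456 times on DECB 4, 5 and 6. The DECB arrays were close to one another, although they came from 3 scans, and all were far above the highest control, control 3. The log2 level was 5.23 ± 0.59 in controls and 8.76 ± 0.10 in DECB samples (SD, n = 3), so Saa1 rose 11.6-fold, by 3.53 with an SE of 0.36 (adjusted p = 0.026). It was 3.92 within scan 1 and 3.42 within scan 2. The call was lost when any array other than DECB 6 was left out (adjusted p from 0.0752 to 0.162), while the difference stayed between 3.35 and 3.87. It was also lost without scan 1 (adjusted p = 0.0546), with controls 2 and 3 averaged (0.118) and with no filter on dim probes (0.105).

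Saa2, its near-identical neighbour, was at 19.8, 38.8 and 65.4 times the 75th percentile on the controls and at 438, 328 and 110 times on DECB 4, 5 and 6. DECB 6, the dim array of the group, was lowest and still above every control. The difference was 2.76 on the log2 scale (SE 0.64, adjusted p = 0.151), 2.47 within scan 1 and 3.12 within scan 2, and with scan as a block 2.84 (adjusted p = 0.0234). Probe sequences were not used here, so how far the probes of Saa1 and Saa2 each take up RNA of the other gene is unknown. The same holds for the orosomucoid probes.

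Saa3, the form made outside hepatocytes as well, was the dimmest member. Its signal was 0.119, 0.146 and 0.147 times the 75th percentile on the controls, the first of them not well above background. DECB 4 reached 5.12 times, DECB 5 and 6 only 0.344 and 0.574 times. All DECB arrays lay above all controls, but DECB 4 was far above the other two. The mean difference was 2.88 on the log2 scale (SE 0.93, adjusted p = 0.337), 1.70 without DECB 4 and 5.13 within scan 2, which holds DECB 4. Within scan 1 the measured difference was 2.27, against a control not well above background. The difference over all arrays was 1.75 with normexp, another background correction, which adds an offset of 50 and so shrinks differences of dim probes.

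Kupffer cells and other macrophages can make Saa3. Of 12 of their markers on the array, all 12 were tested, 0 passed in limma, and their median difference was -0.20 (0.06 with scan as a block). Their mean level ran from 0.37 to 0.71 (log2) on control and from 0.27 to 0.70 on DECB arrays. Of the 12 markers, 8 lay below 0 and 4 above. Clec4f, which marks Kupffer cells, and Csf1r, the macrophage growth factor receptor, differed by -0.40 and -0.58 (adjusted p = 0.837 and 0.669). Cd5l, another of these markers, differed by 0.51 (adjusted p = 0.877). In bulk tissue, a change in the number of cells of a type and a change in RNA per cell cannot be told apart. Of 6 adipocyte markers, Adipoq, Lep and Cfd were not well above background on any array, whereas Fabp4 was on all 6. Fabp4 and Retn, the 2 tested, differed by 0.66 and 0.40 (adjusted p = 0.711 and 0.861). The part of either cell type in the Saa3 difference was not tested.

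Saa4, the constitutive form, was at 7.91, 7.15 and 9.99 times the 75th percentile on the controls and at 24.1, 25.3 and 27.8 times on the DECB arrays. Its DECB arrays were as close together as those of Saa1, with an SD of 0.10 (log2) for either gene. The difference was 1.63 on the log2 scale (SE 0.27, adjusted p = 0.068), or 3.10-fold, with 1.81 within scan 1 and 1.51 within scan 2. It passed with scan as a block (adjusted p = 0.0315).

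Lcn2, the siderophore-binding lipocalin, was at 7.30, 4.83 and 3.42 times the 75th percentile on the controls and at 52.2, 23.2 and 40.2 times on the DECB arrays. The lowest DECB array, DECB 5, was above the highest control, control 1. The difference was 2.89 on the log2 scale (SE 0.43, adjusted p = 0.0514), or 7.39-fold, with 2.46 within scan 1 and 3.68 within scan 2. It passed with scan as a block (3.16, adjusted p = 0.024) and with normexp (2.83, adjusted p = 0.0418).

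Neutrophils carry Lcn2 protein in their granules, and their markers were read beside it. Of 13 such markers on the array, 4 were well above background on all 6 arrays and Ngp, Cxcr2 and Mmp8 on none. Retnlg was well above background on 2 DECB arrays, Mpo and Mmp9 on 1 each, and none of them on a control array. Over the 7 tested, the median difference was 0.59 (0.15 with normexp) and 0 passed in limma; their mean level ran from -0.79 to 0.46 (log2) on control and from -0.16 to 1.00 on DECB arrays. S100a8 and S100a9, calcium-binding proteins abundant in neutrophils, both differed by 1.57 (adjusted p = 0.101 and 0.167), with DECB arrays all above controls, and with normexp S100a8 differed by 0.86. Both passed with scan as a block. Csf3r, the receptor of granulocyte colony-stimulating factor and well above background on all arrays, differed by -0.55 (adjusted p = 0.593), with DECB arrays all below controls. Camp differed by 0.59, and Elane and Ltf, granule proteins named after their values were seen, by 0.33 and 0.15 (adjusted p = 0.873 to 1). Itgam, also on the macrophage list, differed by 0.94 (adjusted p = 0.887, named after its values were seen). The part of neutrophils in the Lcn2 difference was not tested.

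The orosomucoids had positive differences whose groups overlapped. Orm1 was at 5.53, 7.98 and 7.13 times the 75th percentile on the controls and at 22.6, 13.2 and 7.87 times on the DECB arrays. DECB 6 fell just below control 2. The difference was 0.97 on the log2 scale (95% interval -0.05 to 1.98, adjusted p = 0.53), with 0.51 within scan 1 and 1.59 within scan 2, and 0.58 without DECB 4.

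Orm2 was at 13.3, 5.74 and 4.88 times the 75th percentile on the controls and at 20.2, 10.6 and 30.3 times on the DECB arrays. Both arrays of scan 1 were the highest of their group. The difference was 1.37 on the log2 scale (interval 0.11 to 2.63, adjusted p = 0.45), with 1.18 within scan 1 and 1.93 within scan 2, and with scan as a block 1.61 (adjusted p = 0.034).

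Orm3 ran the other way by scan, with 0.778, 3.52 and 2.52 times on the controls and 15.6, 7.58 and 1.90 times on the DECB arrays. Both arrays of scan 1 were the lowest of their group, and DECB 6 lay below controls 2 and 3. The difference was 1.68 on the log2 scale (interval -0.37 to 3.73, adjusted p = 0.622), with 1.29 within scan 1 and 2.39 within scan 2, and with scan as a block 1.92 (adjusted p = 0.0433). It was 1.00 without DECB 4 and 1.03 without control 1.

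Hp and Hpx, which clear haemoglobin and haem from plasma, were bright on every array and had the smallest differences of the members. Hp was at 416, 470 and 416 times the 75th percentile on the controls and at 520, 364 and 481 times on the DECB arrays. DECB 5 was the lowest and DECB 4 the highest array of all, with the controls between. The difference was 0.05 on the log2 scale (interval -0.60 to 0.71, adjusted p = 1), and its sign turned with quantile normalization (-0.01) and with median scaling (-0.07).

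Hpx was at 523, 291 and 221 times the 75th percentile on the controls and at 418, 341 and 704 times on the DECB arrays. Scan 1 was highest in both groups, as for Orm2. The difference was 0.53 on the log2 scale (interval -0.51 to 1.56, adjusted p = 0.847), with 0.43 within scan 1 and 0.72 within scan 2; without DECB 6 it was 0.23. Most red cell genes were lower beside these proteins, without passing. Of 7 tested, 6 lay below 0, with a median of -1.73. Their mean level ran from 2.51 to 2.68 (log2) on control and from 0.73 to 2.3 on DECB arrays. The haemoglobin genes Hba-a1 and Hbb-bt differed by -1.73 and -2.29 (adjusted p = 0.191 and 0.139), and near-identical globin genes may share probes. Alas2 and Slc4a1, the red cell genes tested that are not globins, differed by 0.88 and -0.13 (named after their values were seen). The part of blood in these values was not tested. Of the remaining marker lists, 0 genes passed in limma, with medians of -0.02 for 9 endothelial and stellate cell genes, 0.76 for 5 of cholangiocytes, 0.53 for 2 of adipocytes and 0.17 for 6 of lymphocytes.

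**Figure D2:**
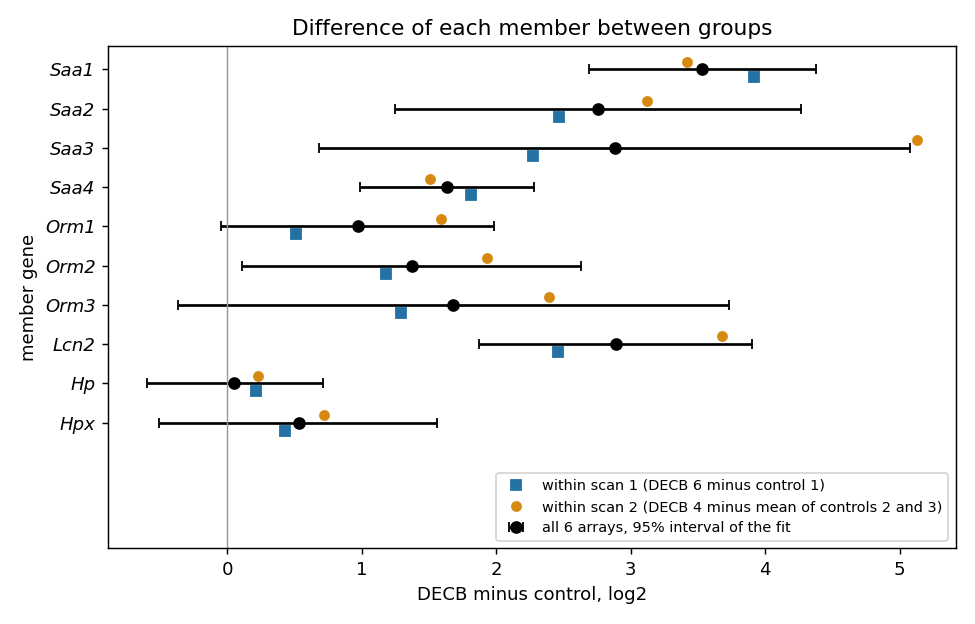
Difference between DECB and control for each member (horizontal axis, log2; vertical axis, gene). Black points with bars are the fit to all 6 arrays with its 95% interval, blue squares the difference within scan 1 and orange points that within scan 2. Within-scan values lie above 0, from 0.21 for Hp in scan 1 to 5.13 for Saa3 in scan 2; that of Saa3 in scan 1 is taken against a control not well above background.

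Whether members changed unequally, within the serum amyloid A and orosomucoid families and between others, was read from ratios within an array, which do not depend on array scaling. The 8 pairs were compared with exact permutation tests over the 6 arrays, two-sided, whose smallest possible p is 0.1, so no pair could pass 0.05. The ratio of Saa4 to Saa1 was -1.93, -2.02 and -2.59 (log2) on the controls and -4.21, -3.98 and -4.04 on the DECB arrays. The groups did not overlap, and the constitutive form gained less signal than the inducible one on every DECB array. The ratio was lower by 1.90 in DECB on the log2 scale (difference -1.90, exact permutation p = 0.1, adjusted over the 8 pairs 0.4). The ratio of Orm2 to Saa1 behaved alike, with -1.17, -2.34 and -3.62 on the controls, -4.47, -5.24 and -3.91 on the DECB arrays and a difference of -2.16 (exact permutation p = 0.1, adjusted 0.4).

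The other 6 ratios overlapped between groups. The ratio of Saa2 to Saa1 differed by -0.77 (exact permutation p = 0.4, adjusted 0.64) and by -0.14 without DECB 6, where alone it was low, at -2.06. The ratios of Saa3 to Saa1 and of Lcn2 to Saa3 differed by -0.66 and 0.01, and DECB 4 stood apart from DECB 5 and 6 in both. Those of Orm2 to Orm1, Orm3 to Orm1 and Hpx to Hp differed by 0.41, 0.71 and 0.47 (exact permutation p = 0.5, 0.4 and 0.4).

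**Figure D3:**
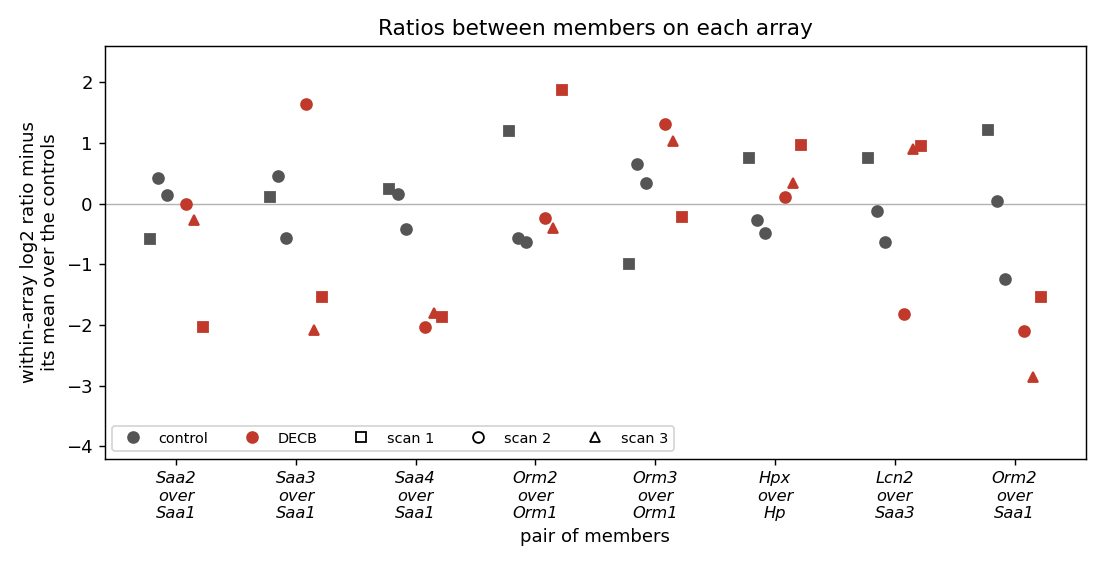
Ratio of 2 members within each array (vertical axis, log2 ratio minus its mean over the 3 controls; horizontal axis, pair). Grey marks are control and red marks DECB arrays, and their shape gives the scan. The groups stand apart for Saa4 over Saa1 and for Orm2 over Saa1, where each DECB array is below each control.

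Members varied together to different degrees over the 6 arrays, which share scans and brightness; the group difference enters each correlation. Pearson's r with the mean of the other 9 members was 0.928 for Lcn2, 0.915 for Saa1, 0.906 for Saa4, 0.891 for Saa3 and 0.88 for Saa2, and 0.342 and 0.336 for Hp and Hpx. The genes most like the members' mean profile, by Pearson's r over all 6 arrays, were Hsp90aa1, a cytosolic chaperone (0.998), Mup20, a major urinary protein (0.997), Msantd1 (0.996), Scara5, a ferritin receptor (0.995), Cxcl1, a chemokine for neutrophils (0.994), and Mlkl, the effector of necroptosis (0.990). Since the members' profile differs between the groups, genes chosen for their likeness to it differ too, and their differences are given as a description: 3.51 for Cxcl1, 2.39 for Scara5, 1.51 for Hsp90aa1, 1.03 for Mup20, 0.76 for Msantd1 and 0.56 for Mlkl (log2). Cxcl1 was at -0.88, -0.88 and -1.07 (log2) on the controls and at 3.68, 1.70 and 2.32 on the DECB arrays, with DECB 4 highest.

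Other positive acute-phase proteins of liver differed less than the members. Of 29 tested, 0 passed in limma, 19 lay above 0 and the median was 0.18 (log2). Steap4, an inflammation-induced metalloreductase, differed by 2.06 (adjusted p = 0.221), Cd14, a co-receptor of endotoxin, by 1.33, and the pentraxins Apcs and Crp by 1.17 and 0.91 (adjusted p = 0.3, 0.384 and 0.464), each with all DECB arrays above all controls. Among others named after their values were seen, the fibrinogen chains Fga, Fgb and Fgg differed by 0.73, 0.17 and 0.13 and the protease inhibitor Serpina3n by 0.07 (adjusted p = 0.764 to 1). The endotoxin-binding protein Lbp, the iron hormone Hamp and Lrg1 differed by 0.83, 0.82 and 0.81 (adjusted p = 0.593, 0.708 and 0.669). With scan as a block 3 of the 29 passed as higher, against 2.74% of all genes.

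Negative acute-phase proteins, which the liver makes less of in inflammation, mostly lay on the other side. Of 13 tested, 0 passed in limma, 11 lay below 0 and the median was -0.28. Serpina6, the carrier of glucocorticoids in plasma, differed by -1.05, and Fetub by -0.69 (adjusted p = 0.363 and 0.487), both with all DECB arrays below all controls. With scan as a block 1 of the 13, Serpina6, passed as lower (adjusted p = 0.0497), against 3.94% of all genes. Alb and Ttr differed by -0.08 and -0.28 (named after their values were seen). Hepatocyte markers, a list that also holds Alb and Ttr, had a median of -0.31, with 11 of 11 below 0 and 0 passing in limma.

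Of interleukin-6, gp130 and STAT3 signalling genes, 17 were tested, 0 passed in limma, 13 lay above 0 and the median was 0.33. Bcl3, an atypical IkB protein, differed by 2.34 (adjusted p = 0.102), and the feedback inhibitors Socs3, Socs1 and Cish by 1.5, 1.84 and 1.79 (adjusted p = 0.214, 0.272 and 0.367). Socs2, of the same family, went the other way, by -1.46 (adjusted p = 0.493, named after its values were seen). All DECB arrays lay above the controls for Bcl3, Socs3 and Socs1 but not for Cish, and Socs1, a dim probe, differed by 0.78 with normexp. Stat3 itself differed by 0.33 and the receptor Il6ra by -0.93 (adjusted p = 0.973 and 0.396; named after their values were seen). With scan as a block 3 of the 17 passed as higher, Bcl3 and Socs1 among them, and 2 as lower, where 2.74% and 3.94% of all genes passed.

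Of interleukin-1, tumour necrosis factor and NF-kB genes, 24 were tested, 0 passed in limma, 16 lay above 0 and the median was 0.21. The interleukin-1 receptor Il1r1 and Tlr2, also a receptor of serum amyloid A, differed by 1.71 and 1.67, and Tnfaip3, which ends NF-kB signalling, by 1.97 (adjusted p = 0.143, 0.139 and 0.374). Each had all DECB arrays above all controls. Tnfrsf1b, a receptor of tumour necrosis factor, differed by -1.74 (adjusted p = 0.127), with all DECB arrays below all controls. With scan as a block 2 of the 24 passed as higher, Il1r1 and Tlr2 (adjusted p = 0.0245 and 0.0308), against 2.74% of all genes. With normexp Tlr2 and Tnfrsf1b, both dim, differed by 0.79 and -0.69.

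Of 10 C/EBP, HNF1 and glucocorticoid receptor factors, 0 passed in limma and the median was 0.06. Creb3l3, a liver factor of the acute phase and of fasting, differed by -1.13 (adjusted p = 0.464) with all DECB arrays below all controls, and passed as lower with scan as a block (adjusted p = 0.0323), the only one of the 10 to pass in that fit. Cebpb and Cebpd differed by -0.14 and 0.09 (named after their values were seen). Of 13 receptors and carriers of these proteins, 0 passed in limma and the median was -0.06. Apart from Tlr2, the lowest p belonged to Cd36, a scavenger receptor, and Slc40a1, the iron exporter ferroportin, which differed by -1.09 and -1.20 (adjusted p = 0.253 and 0.435). Both passed as lower with scan as a block (adjusted p = 0.0433 and 0.0355), and Tlr2 as higher.

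**Figure D4:**
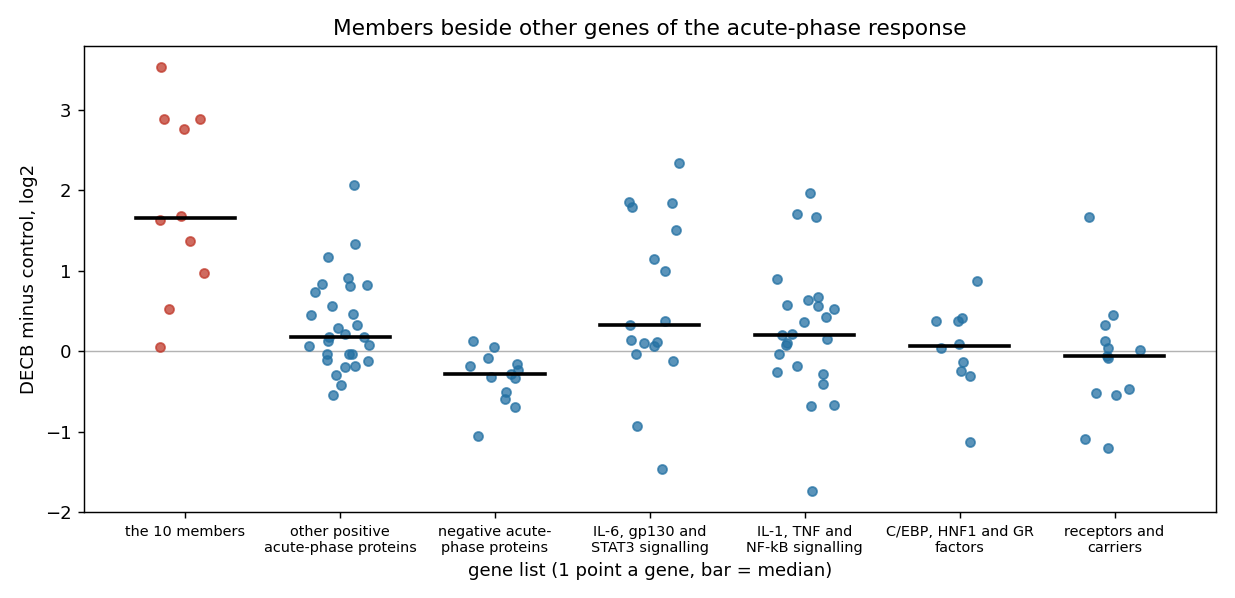
Difference between DECB and control (vertical axis, log2) of the 10 members and of the genes tested in 6 other lists of the acute-phase response (horizontal axis). A point is a gene and a bar the median, which is 1.66 for the members, 0.18 for other positive and -0.28 for negative acute-phase proteins.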

How the data were processed

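Each array of the 1-colour Agilent design has its own scanner file. Per the file headers, the deposited processed intensity was background-subtracted and spatially detrended by Agilent Feature Extraction 11.0.1.1, with no normalization between arrays, on a design of mouse build mm9; the median spot and background intensities are deposited uncorrected. The authors' deposited value table, on a log2 scale, did not follow the arrays and was not compared between groups.

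Here log2 processed signal minus the array's 75th percentile was used. Control and outlier-marked spots were left out, spots of a probe averaged, and probes kept that were well above background on 3 or more of the 6 arrays (25423 of 39429). Symbols came from RefSeq accessions (27234 of 28684 matched, GRCm38.p6); coordinates are given only for the RefSeq promoter windows, in that build. A gene took its brightest probe. Tests were two-sided limma 3.58.1 fits (R 4.3.3) with Benjamini-Hochberg adjustment over 14807 genes. They were also run on simulated data of independent genes without scan effects, so false calls due to scan were not checked. The number of arrays limits precision. normexp used median spot signals, since the files used here hold no mean spot signal. Its offset of 50 shrinks differences of dim probes by construction.

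Members and lists were chosen with earlier results of these data known. Named were all members, up to 4 genes a list by smallest p, the 6 genes most like the members, and genes marked as named after their values were seen. No replicate number is shared between groups. The alternatives tried were other background corrections, scalings and filters, scan as a block, controls 2 and 3 averaged, and arrays left out.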

Additional observations from a re-analysis of the deposited data

How the results depend on the processing

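The mean of every member except Hp was higher in DECB under each alternative run for it. Hp was below 0 with quantile normalization (-0.01), with median scaling (-0.07), without scan 1 (-0.02) and without DECB 4 (-0.05), and with 1 array left out lay between -0.05 and 0.21. Median scaling moved the median of all genes from -0.03 to -0.16; no other scaling moved it by over 0.1. All genes called numbered 69, and 39 with quantile normalization, 137 with the percentile taken over probes well above background on all arrays, 0 with no filter on dim probes (1257 at an unadjusted p under 0.05 in limma), 988 with scan as a block, 2 with controls 2 and 3 averaged, and 0 to 53 with 1 array left out. They numbered 78 without scan 1, 55 with normexp, 81 with the mean of a gene's probes and 100 of 9402 with the strict filter (well above background on all arrays). Members called numbered 1, and 2 with normexp and with the mean of a gene's probes (Saa1 and Lcn2 in both), 3 with that other percentile and with the strict filter (Saa1, Saa4 and Lcn2 in both), 7 with scan as a block, 0 with no filter, without scan 1 (7 at an unadjusted p under 0.05 in limma) and with controls 2 and 3 averaged, and 0 to 1 with 1 array left out (Saa1, without DECB 6). Without scan 1, 3418 of 14806 genes had an unadjusted p under 0.05 in limma. An alternative chosen after seeing the data, leaving out scan 1, gave 9 members with both DECB arrays above both controls. These were all but Hp, and 26.5% of all genes did the same.

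Among ratios, Saa3 to Saa1 lay between -1.81 and 0.06 with 1 array left out, turning to 0.06 without DECB 5, Orm2 to Orm1 turned to -0.32 without DECB 6, and Lcn2 to Saa3, at 0.01, lay between -0.46 and 0.93 with 1 array left out, at -0.05 without control 2, -0.31 without control 3, -0.44 without DECB 5 and -0.46 without DECB 6. The medians of the 6 lists kept their sign with scan as a block and with normexp. The cause of these changes was not tested. No paired analysis was possible because the groups share no replicate number in their titles. Each member has 1 probe, so no other probe could be set in its place, and the value table was not run as an alternative because it did not follow the arrays.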

Other observations

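The authors' deposited value table gave other values for these genes than the arrays did. Pearson's r was taken over 14243 probes well above background on all 6 arrays. Each of its columns correlated with the array of the same sample at 0.524 to 0.576. That array was the best match of its column only for DECB 5. For control 1 it was the poorest match, at 0.524 against up to 0.579. The arrays correlated with each other at 0.871 to 0.993 and the columns with each other at 0.963 to 0.995. Its columns have the same median, 5.34, and how they were centred is unknown. Every column of the value table correlated positively with every array, so higher values went with higher signal across probes. Lcn2 stood in the table at 12.29, 12.25 and 12.05 (log2) for controls 1, 2 and 3. It stood at 10.87, 10.44 and 10.72 for DECB 4, 5 and 6, so lower in DECB, where the arrays had it higher. The order within each group was that of the arrays. Saa2 stood at 7.17, 6.91 and 7.07 and at 10.85, 8.5 and 10.42. Saa1 stood at 6.65, 7.08 and 7.75 and at 8.57, 8.73 and 8.80.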
